A study of Mus musculus with 80 samples.

Results

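This comparison sets the gastrocnemius of male C57BL6/J mice after 168 h of hindlimb unloading against that of males labelled as controls (0 h). It holds the 8 libraries labelled 168 h and the 7 labelled 0 h in the deposited table of 41 male libraries, 15 of the 80 libraries of the series, and describes all 12853 genes of that table. The labels give C57BL6/J as the genotype of both groups and name no allele, age or pooling of animals. The other male libraries, 8 at 24 h, 9 at 48 h and 9 at 72 h, entered the statistical fit so that all 5 groups shared 1 estimate of the spread. The study's description states n = 8 a group, and its title asks how the sexes diverge in their RNA as wasting begins; the females are not used here. The labels do not say whether the libraries of a group came from separate animals, so p values measure only the spread between these libraries, which may be technical.

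The gastrocnemius is a mixed calf muscle built mostly of fast fibres, with slow and oxidative fibres in its deeper part. In hindlimb unloading the hind legs hang free of the ground, so that the muscle still contracts but bears no weight, and it loses mass. A wasting muscle is known to break down its proteins through ubiquitin ligases, which tag them, the proteasome, which digests them, and autophagy, which delivers them to lysosomes. FoxO transcription factors and glucocorticoids drive that programme, and insulin-like growth factor and mTOR signalling hold it back. Disuse is also known to shift a muscle's fuel use and fibre type, and to lower the expression of collagens.

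RNA came from whole frozen muscle, so fewer cells of a type and less RNA per cell cannot be told apart. The values are a normalized signal, estimated reads divided by 1 size factor per library, and the depth behind them was estimated, from the size of the smallest steps in the values, at 18.1 to 35.4 M reads in the controls and 18.0 to 49.7 M reads at 168 h. The S numbers in the titles lie between 26 and 41 in both groups, all even at 0 h and all odd at 168 h, and nothing says what they stand for. The libraries that stood farthest from their groups were replicate 4 at 168 h (median Spearman correlation with its group 0.970), replicate 8 at 168 h (0.976) and replicate 2 of the controls (0.977), against 0.981 to 0.988 in the other 12. Replicate 8 was also the shallowest of the 168 h libraries. The 8 markers of skeletal muscle fibres were present in every library, with a summed signal of 3866364 to 5726106 at 0 h and 4265577 to 6282270 at 168 h, and 1 of them, the skeletal actin Acta1, fell (log2 change -0.51 ± 0.11).

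Signals of other cell types were low beside those of the fibres. Summed over 9 macrophage markers the signal was 3351 to 8385 at 0 h and 3460 to 6044 at 168 h, and over 5 red cell markers it was 25795 to 63141 and 26044 to 77285. None of these 14 genes was called by limma, and 1 of them, a macrophage gene, had an unadjusted p under 0.05. The 9 endothelial markers summed to 12068 to 15551 and 10413 to 14043, the 8 of smooth muscle and pericytes to 28697 to 38304 and 27623 to 35828, and the 10 of fibro-adipogenic progenitors to 24846 to 37932 and 23633 to 37949. The 7 tenocyte markers summed to 7796 to 17670 and 4698 to 15141, the 8 adipocyte markers to 66142 to 133482 and 54684 to 105915, the 6 Schwann cell markers to 3073 to 5753 and 2374 to 5673, and the 5 satellite cell markers to 1289 to 1546 and 1578 to 1859. The groups overlapped in each of these sums except that of the satellite cell markers, which was higher at 168 h in every library. Of those 5 markers Cdh15 alone was called, and their median log2 change was 0.06 (-0.34 to 0.64). No measured marker was at 0 in any of the 15 libraries, none of the 6 neutrophil markers was among the genes of the table, and of 9 lymphocyte markers the table held Cd3e alone, at 15.2 to 109.8 and 2.81 to 42.2. The part of cell composition in the results was not tested.

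After a week without load, 1418 genes were higher and 1479 lower, which is 11% and 11.5% of the genes tested and 22.5% together (limma, Benjamini-Hochberg adjusted p under 0.05). Most changes were small. The median size of a called change was 0.35 on the log2 scale among genes that rose and 0.43 among those that fell. Changes above 1 on that scale, a doubling or a halving, were found for 60 higher and 99 lower genes. Of the called genes 1246 and 1379 are annotated as protein coding, and 74 and 52 as long non-coding RNAs. In 325 genes (2.53% of those tested) every 168 h library lay above every control, and in 256 (1.99%) every one lay below. The deposited table lists only genes whose highest library reaches about 100, and the part of that selection in these counts was not tested. The authors' deposited table calls 1527 genes higher and 1526 lower at its own adjusted p under 0.05. Both sources called 2822 genes, which is 97.4% of the limma calls and 92.4% of those of the authors' table, all in the same direction.

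**Figure D1:**
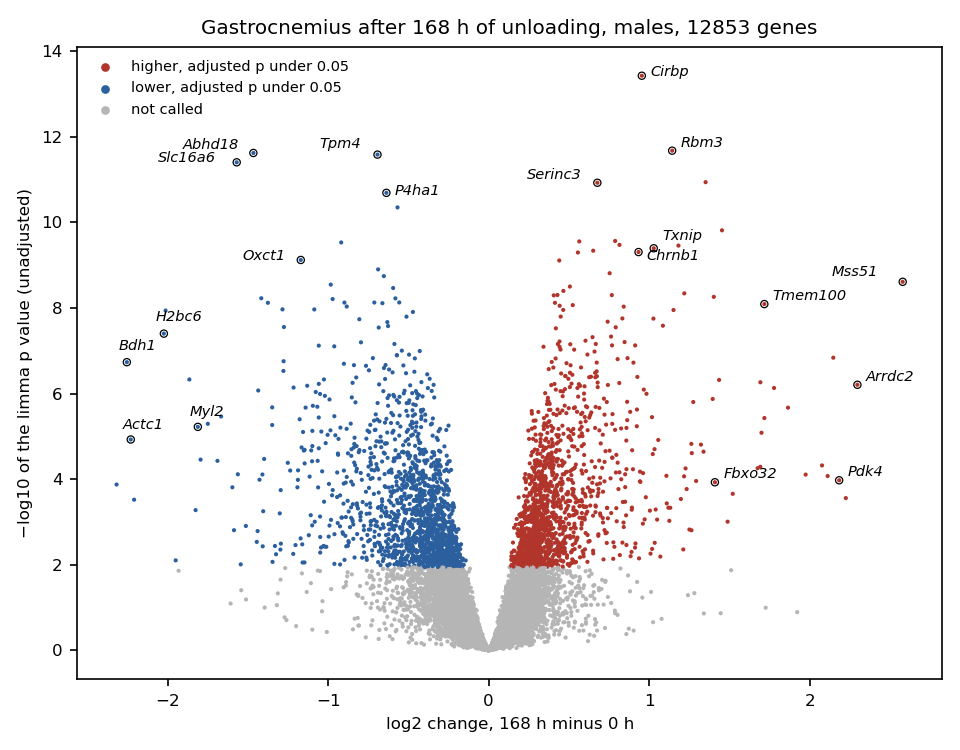
Each point is 1 of 12853 genes, with the log2 change from 0 h (7 libraries) to 168 h (8 libraries) across and −log10 of the unadjusted limma p up. The 1418 genes called higher are red and the 1479 called lower are blue. Cirbp has the smallest p, and Mss51 the largest rise among the circled genes.

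The 8 genes described here were picked from those with the smallest p values, and most of their changes were moderate. Cirbp, a cold-inducible RNA-binding protein, lay at 735 to 930.2 (median 884) in the controls and at 1521 to 1760.3 (median 1689) at 168 h, a log2 change of 0.95 ± 0.09 (limma adjusted p = 4.8e-10). Rbm3, the other well known cold-inducible RNA-binding protein, went from a median of 2381 (2158 to 3219) to 5604 (4559 to 6997), 2.21-fold higher (limma adjusted p = 8.4e-09). In both genes the lowest unloaded library lay above the highest control. Serinc3, a membrane protein, rose by 0.68 ± 0.07, Uri1, a prefoldin-like cochaperone, by 0.79 ± 0.10, and the kinase gene Riok3 by 0.56 ± 0.07 on the log2 scale (limma adjusted p = 2.2e-08, 2.9e-07 and 2.9e-07). Among lower genes, Tpm4, a tropomyosin of the cytoskeleton, fell from a median of 1165 (1011 to 1325) to 727 (637 to 791), a log2 change of -0.69 ± 0.07 (limma adjusted p = 8.4e-09). Wdr1, which helps cofilin to take actin filaments apart, changed by -0.57 ± 0.06 and the hydrolase gene Abhd18 by -1.47 ± 0.15 (limma adjusted p = 6.4e-08 and 8.4e-09). No library of one group reached the other in any of these 8 genes. As they were picked by their p values, that separation is no added evidence.

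Several of the largest changes had a wide spread. Pdk4, a kinase that switches pyruvate dehydrogenase off, was 1585 to 14159 (median 3782) in the controls and 4263 to 51788 (median 19941) at 168 h. Its groups overlapped, since control replicate 4 reached 14159 and 168 h replicate 5 stayed at 4263, and its log2 change was 2.18 ± 0.50 (limma adjusted p = 0.0017). Depp1, a FoxO target linked to autophagy, and Chac1, which degrades glutathione, rose by 2.08 ± 0.45 and 1.97 ± 0.45, with 6 and 4 of 8 libraries above all controls. Tmem100, a transmembrane protein known from the vessel wall, went from a median of 587 (479 to 1308) to 2307 (1359 to 2882) without overlap (log2 change 1.72 ± 0.23, limma adjusted p = 2.4e-06). Other large rises were those of Igfn1 (1.78 ± 0.30), Odf3l2 (1.70 ± 0.33) and Ctxn3 (1.40 ± 0.19). At the other end stood H2bc6, a histone H2B gene of the kind used in DNA replication, which fell from a median of 445 (358 to 619) to 126 (35.2 to 189), a log2 change of -2.02 ± 0.30 (limma adjusted p = 7.5e-06). Slc16a6, a monocarboxylate transporter that in zebrafish carries ketone bodies out of the liver, fell from a median of 389 (242 to 492) to 119.7 (90.5 to 176), a log2 change of -1.57 ± 0.16 (limma adjusted p = 1.0e-08). Klhl34 fell by 1.43 ± 0.33 on the log2 scale with overlapping groups.

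The machinery of protein breakdown was higher in part. Of 32 measured subunits of the 26S proteasome 21 rose and none fell, with a median log2 change of 0.28, where the median over all genes tested was -0.0004. At an unadjusted p under 0.05, 27 were higher and 0 lower. Psmd8 and Psmd4, subunits of the regulatory cap, separated the groups: Psmd4 was 2793 to 3758 (median 3416) in the controls and 4424 to 6391 (median 4985) at 168 h. Their log2 changes were 0.79 ± 0.12 and 0.61 ± 0.11 (limma adjusted p = 5.6e-06 and 1.2e-04). Psmc3, an ATPase of the cap, and Psmd2, a scaffold of its base, rose by 0.41 ± 0.07 and 0.46 ± 0.08, also without overlap. The median subunit lay between 0.17 and 0.42 above the control mean in each of the 8 unloaded libraries, and between -0.13 and 0.15 in the controls. Without 168 h replicates 4 and 8 the count of higher subunits was 12.

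Among 21 muscle ubiquitin ligases and their adaptors 3 rose (14.3%) and 4 fell (19.0%), against 11% and 11.5% of the genes tested. Fbxo32 and Trim63, the ligases best known from wasting muscle, did not overlap between groups. Fbxo32 was 5431 to 10159 (median 7536) in the controls and 10544 to 103212 (median 16676) at 168 h, and Trim63 was 5784 to 7238 (median 6610.4) and 9066 to 61908 (median 11233). Both maxima belong to replicate 8, and the next highest 168 h libraries were at 24632 and 15204. Fbxo32 rose by 1.41 ± 0.33 and Trim63 by 1.12 ± 0.29 on the log2 scale (limma adjusted p = 0.0019 and 0.005), and without replicate 8 by 1.08 and 0.81 (0.0034 and 0.0099). Cblb, a ligase that removes insulin receptor substrate in unloaded muscle, rose by 0.49 ± 0.12. Kbtbd13, a ligase adaptor mutated in a form of nemaline myopathy, fell from a median of 797 (575 to 907) to 389 (242 to 536) without overlap (log2 change -1.07 ± 0.19, limma adjusted p = 1.2e-04), and Trim55, a sarcomeric relative of Trim63, changed by -0.34 ± 0.08. Without 168 h replicate 2, and also without 168 h replicate 4, 5 ligases were higher. Klhl38, a kelch protein that rises in wasting muscle, went from a median of 672 (333 to 944) to 1625 (1179 to 4272), a log2 change of 1.44 ± 0.24.

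Some FoxO targets rose, and of the factors themselves Foxo4 passed the test. Of 17 measured FoxO factors and targets 6 were higher and none lower (2 lower at an unadjusted p under 0.05). They were Pdk4, Depp1, the translation repressor Eif4ebp1 (log2 change 0.85 ± 0.19), the mitophagy kinase Pink1 (0.33 ± 0.08), and with smaller changes Bnip3l and Foxo4. Foxo1 was 696 to 879.8 (median 774) and 704 to 2522 (median 951), with its maximum in replicate 8, and its log2 change of 0.41 ± 0.21 had a limma adjusted p of 0.16. Foxo3 was 903 to 1219 (median 1038) and 939 to 2198 (median 1234), a log2 change of 0.31 ± 0.14 (limma adjusted p = 0.098). The change of Foxo3 was 0.38 without 168 h replicate 4 (limma adjusted p = 0.038), 0.20 without replicate 8 (0.27) and 0.27 without both (0.14). Without control replicate 3 or 168 h replicate 3 the count of lower members was 1. Of 30 autophagy genes 13 rose and 1 fell, with a median of 0.18. Map1lc3a, which coats the autophagosome membrane, went from a median of 2611 (2419.5 to 3072) to 3608 (3084 to 4923) and the autophagy receptor Calcoco1 from a median of 2787 (2373 to 3073) to 3552 (3101 to 4166), neither with overlap (limma adjusted p = 8.7e-04 and 9.5e-05). Of 30 lysosomal proteins 4 rose (13.3%) and 2 fell (6.7%), against 11% and 11.5% of the genes tested. Npc1, the cholesterol exporter of the lysosome, rose by 0.86 ± 0.19, Mcoln1, its calcium channel, by 0.25 ± 0.06, while the protease cathepsin B (Ctsb) changed by -0.21 ± 0.07, a call lost without control replicate 6 (limma adjusted p = 0.055). The count of lower lysosomal genes was 1 without control replicate 2, 4 or 5 and 0 without control replicate 6.

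**Figure D2:**
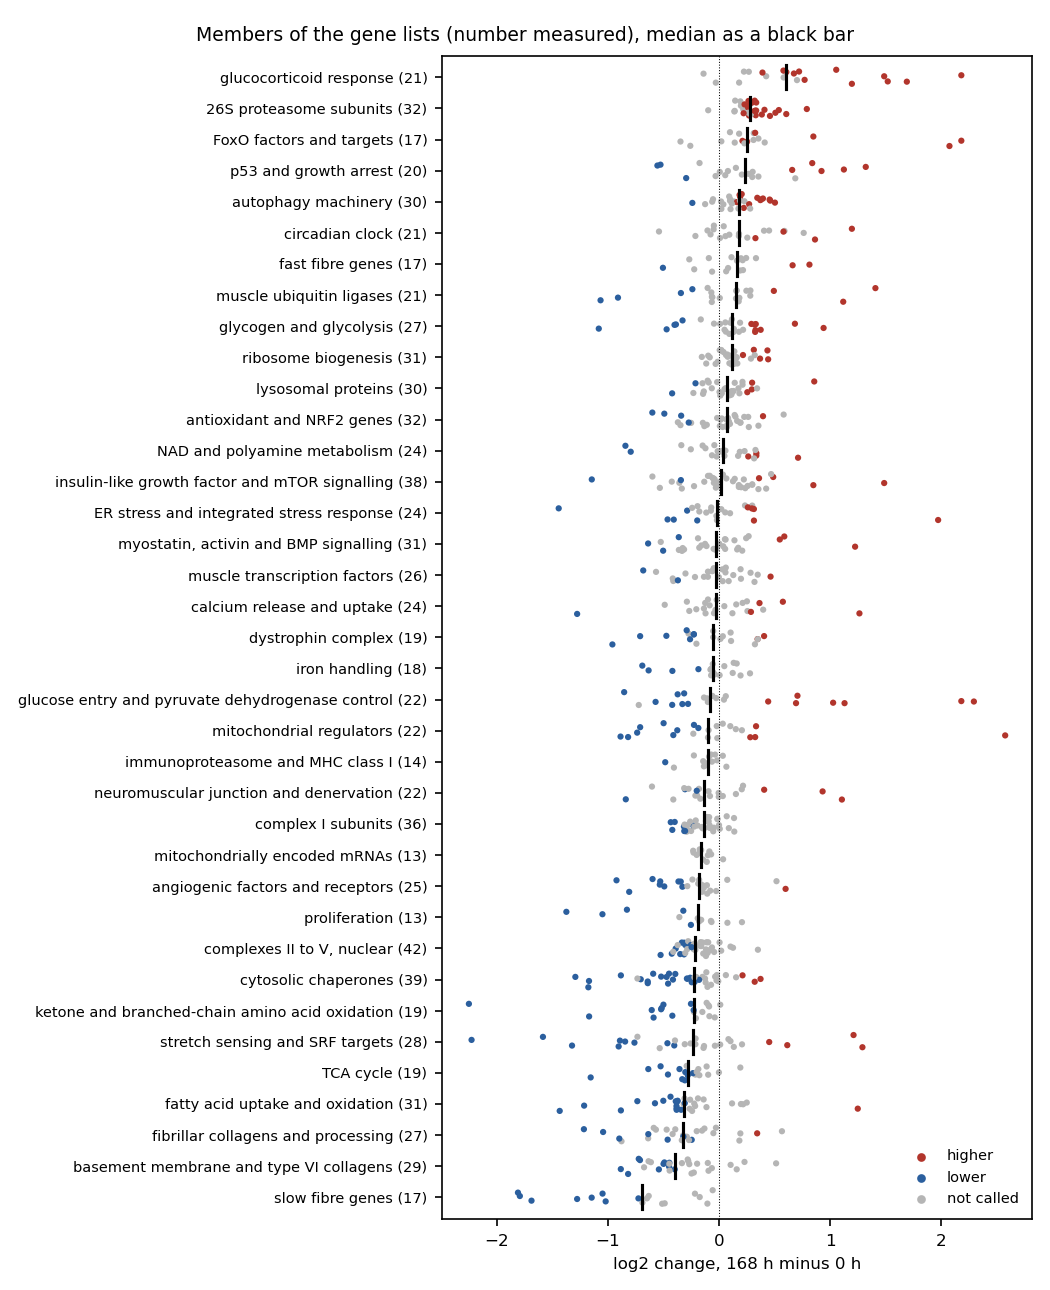
Each point is a measured member of 1 of 37 gene lists, placed by its log2 change from 0 h to 168 h, red where called higher, blue where called lower and grey otherwise, with the list's median as a black bar. The lists run from slow fibre genes, with a median of -0.69, to the glucocorticoid response, with a median of 0.61.

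Genes that glucocorticoids switch on were higher as a group. Of 21 measured members 12 rose and none fell, with a median log2 change of 0.61. At an unadjusted p under 0.05, 15 were higher and 0 lower. Cebpd, a transcription factor of the stress response, was 43 to 85.1 (median 73.5) in the controls and 112 to 805 (median 181) at 168 h, with no overlap (log2 change 1.69 ± 0.37, limma adjusted p = 0.0011). Genes are listed only if their highest library reaches a set signal. Of the groups compared, Cebpd reached it at 168 h alone, and the part of that selection in its separation was not tested. Fkbp5, a chaperone partner that damps the glucocorticoid receptor, went from a median of 2288 (1961 to 3546) to 5039.5 (2571 to 11645), a log2 change of 1.06 ± 0.21 (limma adjusted p = 4.0e-04). Tsc22d3, the glucocorticoid-induced leucine zipper, and the transcription factor Klf9 rose by 0.77 ± 0.14 and 0.61 ± 0.14. All 8 unloaded libraries had a median member above the control mean, by 0.31 to 0.94 in 7 of them and by 1.45 in replicate 8. Without that library Cebpd and Fkbp5 rose by 1.41 and 0.88 (limma adjusted p = 0.0032 and 0.0010). Pdk4 counts in this list too, as does Per1, a clock gene, which rose by 1.20 ± 0.30. Of 21 clock genes 4 were higher (19.0%) and none lower, against 11% and 11.5% of the genes tested. At an unadjusted p under 0.05, 5 were higher and 0 lower. Among the 4 were also the repressor Cry2 (0.58 ± 0.15) and the kinase Csnk1e (0.33 ± 0.08). Without 168 h replicate 4 the clock count was 7. The labels give no hour of the day for the sampling.

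Ddit4 and Eif4ebp1, which act as brakes on growth, were higher, and Irs1, which passes growth signals on, was lower. Ddit4, an inhibitor of mTOR, was 134 to 447 (median 209) in the controls and 289.8 to 3321 (median 533) at 168 h, with 5 of 8 libraries above all controls (log2 change 1.49 ± 0.42, limma adjusted p = 0.0086). Without replicate 8, its highest library, the change was 1.15 (0.027). Eif4ebp1, which holds back the start of translation, went from a median of 617 (517 to 779.7) to 1074 (945 to 1967) without overlap. Irs1, the docking protein of the insulin and insulin-like growth factor receptors, fell from a median of 2322 (1709 to 2878) to 1124 (548 to 1570.1), also without overlap (log2 change -1.15 ± 0.24, limma adjusted p = 5.9e-04). Igf1 itself was 852 to 1715 (median 1003) and 591 to 1276 (median 865), and its change of -0.43 ± 0.20 had a limma adjusted p of 0.11. Of all 38 insulin-like growth factor and mTOR genes 4 rose (10.5%) and 2 fell (5.3%), against 11% and 11.5% of the genes tested. Without control replicate 7 the higher ones numbered 7, and they numbered 11 without 168 h replicate 4, while the lower ones numbered 4 without 168 h replicate 2 or 5.

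The cell cycle inhibitor Cdkn1a, which p53 is known to induce, went from a median of 729 (485 to 838) to 1574 (846 to 4095), and in its list of 20 p53 and growth arrest genes 5 rose and 3 fell. Trp53inp1 and Phlda3, other p53 targets, rose by 0.92 ± 0.17 and 0.66 ± 0.10, whereas Ccng1, also a p53 target, fell from a median of 41235 (37387 to 57688) to 29323 (23563 to 35187) without overlap (log2 change -0.55 ± 0.10, limma adjusted p = 8.0e-05). Of 31 proliferation genes the table lists 13, without Mki67, Top2a or Cdk1, and of these 13, 5 fell and none rose. At an unadjusted p under 0.05, 6 were lower and 0 higher. Cyclin D1 (Ccnd1) was 128 to 396 (median 221) in the controls and 66 to 120.1 (median 88.4) at 168 h and the mitotic kinase gene Aurka 208 to 348 (median 291) and 86.5 to 196 (median 141), with no overlap in either (log2 changes -1.37 ± 0.19 and -1.05 ± 0.18, limma adjusted p = 2.3e-06 and 7.2e-05). Without 168 h replicates 4 and 8 the proliferation count was 3. Among 31 genes of myostatin, activin and bone morphogenetic protein signalling 3 rose and 3 fell. That is 9.7% each way, against 11% and 11.5% of all genes tested. The ligand genes Mstn and Inhbb and the receptor gene Acvr1b (0.59 ± 0.15) rose, and the ligand gene Tgfb3 fell (log2 change -0.36 ± 0.09). Of the groups compared, Inhbb reached the signal needed to be listed at 168 h alone. The part of that selection in its rise was not tested. Without 168 h replicate 4 the count of higher genes there was 5. Of 31 ribosome biogenesis genes 5 rose (16.1%) and none fell, against 11% and 11.5% of the genes tested. At an unadjusted p under 0.05, 8 were higher and 0 lower. Among the 5 were nucleolin (Ncl, 0.37 ± 0.08) and Wdr43 (0.44 ± 0.10), both without overlap.

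Genes for burning fat, ketone bodies and branched-chain amino acids were lower, and none of 19 measured ketone and branched-chain genes was higher, also at an unadjusted p under 0.05. In that list 10 fell. Oxct1, the enzyme that commits ketone bodies to oxidation, was 12060.5 to 19098 (median 16215) in the controls and 4828 to 9714 (median 6394) at 168 h, 44.4% of the control level (log2 change -1.17 ± 0.15, limma adjusted p = 4.8e-07). Bdh1, which acts one step before it, went from a median of 1697 (578 to 2397) to 301 (79 to 393), or 21%. Neither gene overlapped between the groups. Dbt and Mccc1, enzymes of branched-chain amino acid breakdown, fell by 0.61 ± 0.11 and 0.42 ± 0.08 on the log2 scale, again without overlap (limma adjusted p = 1.5e-04 and 1.8e-04).

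In fatty acid uptake and oxidation 16 of 31 genes fell and 1 rose, with a median of -0.32. The log2 change was below 0 in all 8 adipocyte markers too, from -1.54 to -0.08 (median -0.40), with 1 of them called, and their part in this result was not tested. Fabp3, the fatty acid carrier of oxidative fibres, fell from a median of 6223 (3167 to 9114) to 2279.6 (1358 to 2991) and Ppara, a receptor that switches fat oxidation on, from a median of 362 (213 to 424) to 148 (80.1 to 189), both without overlap (log2 changes -1.44 ± 0.24 and -1.21 ± 0.21, limma adjusted p = 6.5e-05 and 5.8e-05). Lpl, the lipase that frees fatty acids from blood lipoproteins, fell by 0.88 ± 0.20 on the log2 scale with 3 of 8 libraries below all controls. The gene that rose was Ucp3, a mitochondrial uncoupling protein, at 1.25. Of 19 citric acid cycle genes 10 fell and none rose, with 15 lower and 0 higher at an unadjusted p under 0.05. Besides Idh2 (-1.16 ± 0.22), Mdh1, the cytosolic malate dehydrogenase, fell from a median of 15707 (11771 to 19675) to 9825 (7126 to 13020.2), a log2 change of -0.64 ± 0.12 and citrate synthase (Cs) by 0.31 ± 0.07 on the log2 scale.

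Some subunits of the respiratory chain were lower. Of 36 complex I subunits 7 fell, and of 42 nuclear-encoded subunits of complexes II to V 10 fell, with medians of -0.14 and -0.21, and none in either list rose, also at an unadjusted p under 0.05. Ndufab1, an acyl carrier protein of complex I, went from a median of 1587 (1525 to 1863) to 1216 (978 to 1504) without overlap (log2 change -0.42 ± 0.08, limma adjusted p = 2.5e-04). Sdhb, the iron-sulphur subunit of complex II, changed by -0.53 ± 0.15 and cytochrome c (Cycs) by -0.39 ± 0.10. The complex I count was 3 or 4 without any one of control replicates 1, 3, 4, 5 and 6 or 168 h replicates 1, 3, 5, 7 and 8, and it was 11 without 168 h replicate 4. With array weights, which give each library its own weight, 15 complex I subunits and 20 of complexes II to V were lower. In replicate 4 the median complex I subunit lay 0.32 above the control mean, in replicate 2 0.07 above it, and in the other 6 unloaded libraries 0.17 to 0.42 below. None of the 13 mRNAs encoded by mitochondrial DNA was called (median -0.16, limma), with 3 lower and 0 higher at an unadjusted p under 0.05. The count was 4 lower without control replicate 2, 3 without 168 h replicate 2, and 1 without control replicate 7 or 168 h replicate 4.

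Regulators of mitochondria moved both ways, 4 of 22 higher and 9 lower. The coactivator Ppargc1a fell from a median of 1643 (1208 to 1894) to 1220.3 (962 to 1426), a log2 change of -0.41 ± 0.10 (limma adjusted p = 0.0036), Perm1, which works with it in muscle, by 0.74 ± 0.14 on the log2 scale, and the mitochondrial deacetylase Sirt3 by 0.50 ± 0.12 on the log2 scale. Mss51, a mitochondrial protein whose loss in mice raises oxidative metabolism in muscle, rose from a median of 2540.2 (1646 to 4421) to 14749.5 (11130.1 to 28657), 5.97-fold. Without 168 h replicates 4 and 8 the count of higher regulators was 2, and with the 0 h and 168 h libraries alone in the fit that of lower ones was 5. Nnt, a mitochondrial enzyme that makes NADPH and is known to be disrupted in C57BL/6J mice, was 596 to 1426 (median 1255) and 246 to 894 (median 663), a log2 change of -0.84 ± 0.24 (limma adjusted p = 0.0096).

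Sugar metabolism did not move one way. Of 27 genes of glycogen and glycolysis 8 rose and 5 fell. Pfkfb3, which makes the activator of phosphofructokinase, was 11192 to 33827 (median 16208) and 25678 to 54397 (median 31812), with 3 libraries above all controls (log2 change 0.94 ± 0.22, limma adjusted p = 0.0018). Fbp2, the muscle fructose bisphosphatase, went from a median of 1585 (1079.6 to 2085) to 2499.7 (2242 to 2985) without overlap, and Gpi1, an enzyme of glycolysis, rose by 0.38 ± 0.07. Hexokinase 1 (Hk1) fell by 0.47 ± 0.09 on the log2 scale. The count of lower genes was 3 without control replicate 2 or without 168 h replicate 8. Of 22 genes that control glucose entry and pyruvate dehydrogenase 7 rose and 7 fell. Txnip, an arrestin-family gene that glucose induces, and its relative Arrdc2 rose by 1.03 ± 0.13 and 2.30 ± 0.38, and Mlxipl, a glucose-sensing transcription factor known to switch Txnip on, fell from a median of 2328 (2085 to 2527) to 1580.5 (1352 to 1664) without overlap (log2 change -0.57 ± 0.09, limma adjusted p = 1.8e-05). Dlat, a core enzyme of pyruvate dehydrogenase, changed by -0.42 ± 0.08.

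**Figure D3:**
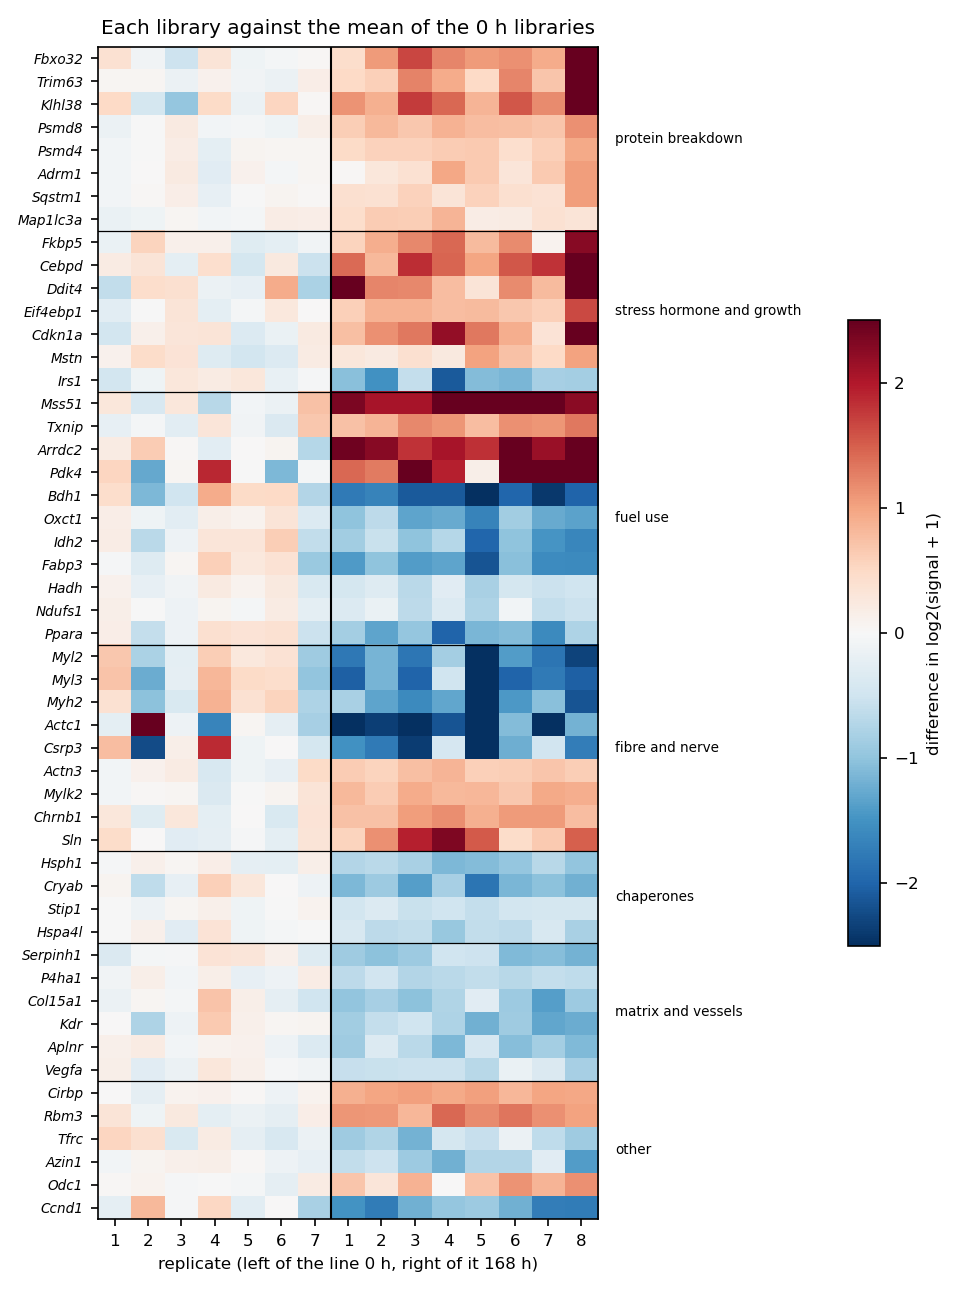
Rows are named genes and columns the 7 control and 8 unloaded libraries, and the colour is the difference of log2(signal + 1) from the mean of the controls, limited to 2.5 in either direction, red above and blue below. Replicate 8 at 168 h is the darkest red for Fbxo32, Trim63 and Cebpd, control replicate 2 stands apart for Actc1, and Cirbp is even across each group.

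Genes of slow fibres were lower and spread widely among the controls. Of 17 measured genes 8 fell and none rose, with a median of -0.69. At an unadjusted p under 0.05, 9 were lower and 0 higher. Casq2, the calcium-storing protein of slow and heart muscle, was 1078 to 2305 (median 1668) in the controls and 374 to 937 (median 687) at 168 h, without overlap (log2 change -1.28 ± 0.21, limma adjusted p = 3.2e-05). Myl2, a slow light chain of myosin, was 3293 to 9737 (median 7258) and 600.4 to 3381 (median 1743), and Myh2, the fast oxidative myosin heavy chain, 29252 to 109456 (median 77474) and 4114 to 33847 (median 22982) (log2 changes -1.81 ± 0.34 and -1.69 ± 0.36). Myh7, the slow myosin heavy chain, was 4877 to 19267 (median 16886) and 4546 to 14015 (median 9343), and its change of -0.51 ± 0.39 had a limma adjusted p of 0.36. Control replicates 2, 3 and 7 had a median slow fibre gene 0.67, 0.28 and 0.88 below the control mean, and the other 4 controls 0.38 to 0.60 above it. All 8 unloaded libraries lay below the mean, from -0.17 in replicate 4 to -1.83 in replicate 5. The count of lower slow fibre genes was 5 without control replicate 1, 5 or 6 or without 168 h replicate 5. In the list of 17 fast fibre genes 2 rose, Actn3 (0.66 ± 0.11) and Mylk2, and Acta1 fell. That is 11.8% and 5.9% of the list, against 11% and 11.5% of all genes tested. Mylk2, the kinase that tunes fast muscle contraction, went from a median of 33334 (25430.2 to 41015) to 57706 (50643 to 63377) without overlap (limma adjusted p = 3.0e-07). The fast myosins Myh1 and Myh4 changed by 0.33 ± 0.26 and 0.19 ± 0.13 (limma adjusted p = 0.37 and 0.29).

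Stretch-responsive genes and targets of the serum response factor were lower in 9 of 28 cases and higher in 4. Srf itself fell from a median of 1626 (1301 to 1831) to 1176 (1023 to 1419), a log2 change of -0.40 ± 0.09 (limma adjusted p = 0.0015). Csrp3, a stretch sensor at the Z-disc, was 420.2 to 7149.8 (median 1973) and 214 to 1479 (median 642), with 2 of 8 libraries below all controls (log2 change -1.59 ± 0.47, limma adjusted p = 0.012). Actc1, cardiac actin, was 2821 to 71553 (median 7510.4) and 1119 to 4150.5 (median 1645), and the control maximum was that of replicate 2, with the next control at 9047. Its log2 change of -2.23 ± 0.44 was -1.72 without that library (limma adjusted p = 9.6e-04). Ccn1, a matricellular target of the YAP coactivator, moved the other way, from a median of 405 (326 to 1991) to 1351 (924 to 1837), a log2 change of 1.29 ± 0.30 (limma adjusted p = 0.0018), although control replicate 1 was above all unloaded libraries. Without 168 h replicate 5 only 2 genes of this list were higher.

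Calcium handling and the nerve contact had called genes at about the share of all genes tested, which was 22.5%. Of 24 genes of calcium release and uptake 4 rose and 1, Casq2, fell. Sarcolipin (Sln), which slows the calcium pump of the sarcoplasmic reticulum, was low throughout, 22.4 to 38.2 (median 26.8) in the controls and 38.4 to 143 (median 70.6) at 168 h, without overlap (log2 change 1.26 ± 0.27, limma adjusted p = 6.5e-04). The table lists only genes whose highest library reaches about 100, and of the 2 groups compared Sln, Gabrr2, Inhbb and Cebpd are among those that reach it at 168 h alone. The part of that selection in their rises was not tested. Cacng1, a subunit of the muscle calcium channel, and the kinase Camk2b rose by 0.58 ± 0.09 and 0.36 ± 0.08. Without control replicate 7 the calcium list had 7 higher genes. Of 22 genes of the neuromuscular junction and of denervation 3 rose and 3 fell. Chrnb1, a subunit of the muscle acetylcholine receptor, went from a median of 959 (726 to 1209) to 1861 (1579 to 2138) without overlap, and Gabrr2, a GABA receptor subunit, from a median of 39.4 (25.7 to 48.7) to 92.9 (42.7 to 132) (log2 changes 0.93 ± 0.12 and 1.11 ± 0.25). Chrne, the adult-type receptor subunit, changed by 0.41 ± 0.14 (limma adjusted p = 0.031), a call lost without control replicate 5 or 6 or 168 h replicate 4 or 6. Hdac9, a class II histone deacetylase, fell from a median of 495 (337 to 639.6) to 292 (203 to 325) without overlap (log2 change -0.84 ± 0.17, limma adjusted p = 5.3e-04). The count of lower junction genes was 1 without control replicate 3 or 4 or without 168 h replicate 3, 6 or 7, and 5 without control replicate 7.

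Of 19 genes of the dystrophin complex 2 rose and 7 fell. Aqp4, the water channel that the complex anchors in fast fibres, went from a median of 2382 (2001 to 2698) to 1292 (511 to 1848) without overlap (log2 change -0.96 ± 0.29, limma adjusted p = 0.014). Sarcospan (Sspn) fell by 0.47 ± 0.09 on the log2 scale, and alpha-sarcoglycan (Sgca) rose by 0.35 ± 0.08. Without 168 h replicate 4 the count of higher genes was 4. Among 26 muscle transcription factors 1 rose (3.8%) and 2 fell (7.7%), against 11% and 11.5% of the genes tested. Tbx15, a factor of fast glycolytic fibres, went from a median of 7627 (6917 to 9839) to 10277 (9993 to 13906) without overlap (log2 change 0.46 ± 0.10, limma adjusted p = 9.5e-04). Six5 and Tead1 changed by -0.68 ± 0.21 and -0.37 ± 0.12. Tead1 was lowest in 168 h replicate 4 (4839), and without that library its change was -0.27 and no longer called (limma adjusted p = 0.064), nor was it called without control replicate 1 or 4. The count of higher factors was 2 without control replicate 3 or 7 or 168 h replicate 1, 3 without 168 h replicate 2 and 4 without 168 h replicate 4, and that of lower ones 1 without control replicate 1 or 4.

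Chaperones were lower as a group, 20 of 39 falling and 3 rising, with a median log2 change of -0.22. The list was drawn up as cytosolic chaperones, but it also holds Hspd1, a chaperone of mitochondria (log2 change -0.39). The heat shock factor Hsf1 is known to switch many chaperones on by binding inverted repeats of the sequence GAA in their promoters. RefSeq promoters (build GRCm38.p6, from 250 bases before to 50 after the start site) were searched for GAANNTTC, an inverted pair of that repeat, which reads the same on both strands. It occurs in 9.04% of 27025 promoters and in 6.76% of the 9148 promoters matched to genes of the table. In the chaperone list 33 of 39 genes matched a promoter and 15 held it (45.5%), 11 of 17 among chaperones that fell (64.7%) and 4 of 16 among the others (25%). Windows of 60 bases around the match are shown for 4 chaperones that fell, picked after their changes were known, because they show the motif that 15 members of this group hold. Capitals mark the 8 bases of the match.
Hspa1a, chr17:34972227-34972286, minus strand: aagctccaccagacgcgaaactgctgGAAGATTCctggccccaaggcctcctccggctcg
Hspb1, chr5:135887776-135887835, plus strand: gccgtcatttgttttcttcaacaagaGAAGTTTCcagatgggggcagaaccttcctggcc
Hspb6, chr7:30553155-30553214, plus strand: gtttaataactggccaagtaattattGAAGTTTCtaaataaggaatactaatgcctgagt
Dnaja4, chr9:54699443-54699502, plus strand: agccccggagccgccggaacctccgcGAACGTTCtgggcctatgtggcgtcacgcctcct
In these 4 promoters the first base of the match lies at most 120 and at least 90 bases before the start site. A match is a run of letters, not a measured binding site. The split into chaperones that fell and the others was made from the calls themselves. Whether Hsf1 or the motif had a part in the changes was not tested.

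The log2 changes of these 4 genes were -1.29 for Hspa1a, an inducible Hsp70, -0.71 for the small heat shock protein Hspb1, -0.59 for its muscle relative Hspb6 and -0.52 for Dnaja4, a partner of Hsp70. Hspa1a has a near-identical neighbour, Hspa1b (-1.17), and reads may be split between them. Hsph1, a nucleotide exchange partner of Hsp70, separated the groups, at 2614 to 3492 (median 3229.8) in the controls and 1430.2 to 1950.0 (median 1679) at 168 h (log2 change -0.88 ± 0.12, limma adjusted p = 2.5e-06). Stip1, which links Hsp70 to Hsp90, went from a median of 2682 (2448 to 2926) to 1952 (1783 to 2121) and Hspa4l, a relative of Hsph1, from a median of 414 (341 to 528) to 267 (215 to 315), both without overlap (limma adjusted p = 3.0e-06 and 2.6e-05). Cryab, the small heat shock protein abundant in oxidative fibres, fell by 1.18 ± 0.22 on the log2 scale. The median chaperone lay 0.14 to 0.39 below the control mean in each unloaded library. Between 16 and 19 chaperones were lower when 1 library was left out.

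The endoplasmic reticulum stress list had no single direction, with 5 of 24 genes higher and 5 lower. Chac1 rose, as above, while Atf3, a stress-induced repressor, was 107.7 to 886 (median 179) in the controls and 46.9 to 260.1 (median 80.5) at 168 h (log2 change -1.44 ± 0.45, limma adjusted p = 0.019), a call lost without control replicate 4 or 5 and with the 0 h and 168 h libraries alone in the fit. Ddit3, a death-linked factor of the same response, fell by 0.46 ± 0.12 on the log2 scale, and the protein-folding enzymes Pdia3 and Pdia4 by 0.29 ± 0.08 and 0.41 ± 0.10 on the log2 scale. The count of higher genes was 2 or 3 without any one of control replicates 1, 4 and 5 or 168 h replicates 6, 7 and 8, and 2 after scaling to the library total. That of lower genes was 3 without control replicate 4 or 5.

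Some collagens and enzymes that build them were lower. Of 27 genes of fibrillar collagens and their processing 7 fell and 1 rose (median -0.32), and of 29 of the basement membrane and type VI collagens 10 fell and none rose, with 16 lower and 1 higher at an unadjusted p under 0.05 (median -0.40). Serpinh1, the chaperone that folds collagen, was 1249.7 to 2040.1 (median 1573) in the controls and 714 to 1143 (median 827) at 168 h, and P4ha1, which hydroxylates collagen prolines, 1299.8 to 1721 (median 1428) and 911 to 1080.4 (median 958). No library overlapped in either, and their log2 changes were -0.90 ± 0.12 and -0.64 ± 0.07 (limma adjusted p = 2.3e-06 and 3.3e-08). P4ha2 fell by 0.32 ± 0.07 on the log2 scale, also without overlap, while P4hb, the subunit that both enzymes share and that folds other proteins too, rose by 0.34 ± 0.07. Col6a3 and Col18a1, collagens around the fibre and in basement membranes, changed by -0.72 ± 0.17 and -0.71 ± 0.16, and laminin alpha 4 (Lama4) by -0.45 ± 0.11. In the fibrillar list the count was 2 higher without 168 h replicate 2 or 7, and in the basement membrane list 1 higher without 168 h replicate 2 or 4. The fibrillar count was 4 lower without control replicate 5 and 13 without control replicate 7. In control replicate 7 the median fibrillar gene lay 0.47 below the control mean and the median tenocyte marker 0.64 below it, and in control replicate 5 they lay 0.24 and 0.48 above. Over the tenocyte markers 2 of 7 fell, Kera (-1.20 ± 0.39) and Comp (-0.76 ± 0.27), a count that was 0 without control replicate 4 and 1 without control replicate 5 or 6 or 168 h replicate 2 or 7. Their part in the collagen result was not tested.

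Blood vessel growth factors and receptors were lower in 9 of 25 cases and higher in 1, the placental growth factor gene Pgf (0.60). Vegfa, the main vessel growth factor made by muscle fibres, went from a median of 4956 (4165 to 6150.4) to 3464 (2849.7 to 4538), a log2 change of -0.53 ± 0.11 (limma adjusted p = 6.2e-04). Its receptor gene Kdr fell by 0.92 ± 0.18 on the log2 scale, the apelin receptor gene Aplnr from a median of 406 (300.4 to 437) to 207 (173 to 301), and endoglin (Eng) from a median of 1236 (992 to 1463) to 782 (723 to 968), the last without overlap (limma adjusted p = 2.5e-04, 6.3e-04 and 3.4e-05). Of the 9 endothelial markers Emcn and Ptprb fell (-0.65 ± 0.11 and -0.37 ± 0.11), the junction protein Cldn5 rose (0.85 ± 0.22), and Pecam1 and Cdh5, present on all endothelium, changed by 0.01 and -0.19 without a call. The count of higher genes in this list was 0 without control replicate 1, 4 or 6 or 168 h replicate 6, and 2 without control replicate 2. Cspg4, a pericyte marker, fell from a median of 417 (356 to 473) to 260.0 (196 to 342) without overlap (log2 change -0.68 ± 0.12).

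Iron handling and polyamine genes included a few clear changes. Of 18 iron genes 4 fell and none rose, with 2 higher at an unadjusted p under 0.05. Steap3, an iron reductase, went from a median of 1081 (966 to 1349) to 745 (461 to 837) and Slc25a37, which brings iron into mitochondria, from a median of 1120.1 (981 to 1337) to 849.6 (732 to 981), both without overlap, the latter by 981.1 against 981.3 (limma adjusted p = 4.5e-04 and 1.4e-04). The transferrin receptor gene Tfrc was 5957 to 11416 (median 7026) and 3441 to 7064 (median 4832), a log2 change of -0.69 ± 0.22 (limma adjusted p = 0.02). Without control replicate 7 the iron count was 1 higher, and without control replicate 1 it was 2 lower and Tfrc lost its call (limma adjusted p = 0.053). In the list of 24 NAD and polyamine genes 4 rose (16.7%) and 2 fell (8.3%), against 11% and 11.5% of the genes tested. Odc1, the first enzyme of polyamine synthesis, rose from a median of 2853 (2440.4 to 3288) to 4919 (2877 to 6351) and Azin1, which shields it from degradation, fell from a median of 2845 (2389.8 to 3082) to 1678 (1050.2 to 2273), the latter without overlap (log2 changes 0.71 ± 0.17 and -0.80 ± 0.12, limma adjusted p = 0.0027 and 1.1e-05). Of 32 antioxidant genes 1 rose (3.1%) and 4 fell (12.5%), against 11% and 11.5% of the genes tested. Among those that fell were Gsta4, which detoxifies lipid peroxides (-0.60 ± 0.14), the peroxiredoxin Prdx6 (-0.34 ± 0.07) and mitochondrial superoxide dismutase Sod2 (-0.27 ± 0.07). The count of higher antioxidant genes was 2 without control replicate 3, 5 or 6 or without 168 h replicate 1, 4 or 6, and 3 without 168 h replicate 3.

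Genes of the immunoproteasome and of antigen presentation did not rise with the constitutive proteasome. Of 14 measured members 1, the activator subunit Psme1, fell (log2 change -0.48 ± 0.12, limma adjusted p = 0.0032) and none rose, with 0 higher and 2 lower at an unadjusted p under 0.05. Psme1 was 592 to 758 (median 715) in the controls and 372 to 875 (median 484) at 168 h, and its highest value was that of replicate 4. That library had the highest signal of its group in 14 of 14 members, with a median 0.94 above the control mean, where the other unloaded libraries lay between -0.56 and 0.18. Control replicate 2 was the highest control in 12 of 14 members (median 0.68 above). Without 168 h replicate 4 the count of lower members was 3.

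Set directly against 72 h, 16 genes were higher at 168 h and 22 lower, 0.124% and 0.171% of those tested and 0.296% together. These counts depend on the fit: with array weights they were 336 and 294, and after scaling to the library total 72 were lower. This contrast holds no control library. Chrnb1 was 1099 to 1487 in the 9 libraries at 72 h and 1579 to 2138 at 168 h, without overlap (log2 difference 0.50 ± 0.11, limma adjusted p = 0.042). Myoregulin (Mrln), which like sarcolipin restrains the calcium pump, was 708 to 1167 at 72 h and 1220.4 to 2247 at 168 h, also apart (log2 difference 0.72 ± 0.14, limma adjusted p = 0.027). Txnip and Mstn were higher than at 72 h by 0.52 ± 0.12 and 0.59 ± 0.14 (limma adjusted p = 0.044 and 0.045). The imprinted long RNA H19 was 9140.3 to 18918 at 72 h and 4696 to 11558 at 168 h (log2 difference -0.81 ± 0.17, limma adjusted p = 0.039), and against 0 h, where it was 13150.3 to 21164 (median 18314), it changed by -1.28 ± 0.18. Lower than at 72 h were also Ldhd, a dehydrogenase of D-lactate (-0.60 ± 0.12), Aplnr (-0.72 ± 0.16) and the endothelial factor Sox7 (-0.61 ± 0.14).

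The contrast with 72 h rests on single libraries. Leaving out 168 h replicate 8 left no call (747 higher and 826 lower at an unadjusted p under 0.05, limma), and leaving out 168 h replicate 4 gave 66 higher and 58 lower. The count of higher genes also moved by over 1.5 times, to between 0 and 30, without 168 h replicate 2, 3, 5, 6 or 7 or without 72 h replicate 2, 3, 4, 5, 6, 8 or 9. The count of lower genes moved to between 1 and 11 without the same libraries except replicate 2 of each group. Of the 9 libraries at 72 h 2 carry S numbers of 25 and 28, near those of the 0 h and 168 h libraries (26 to 41). With these 2 alone no gene was called (212 higher and 183 lower at an unadjusted p under 0.05, limma). With the other 7 alone 40 were higher and 40 lower. For the 12 highest and 12 lowest called changes of the comparison with 0 h, no difference between 168 h and 72 h was called.

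**Figure D4:**
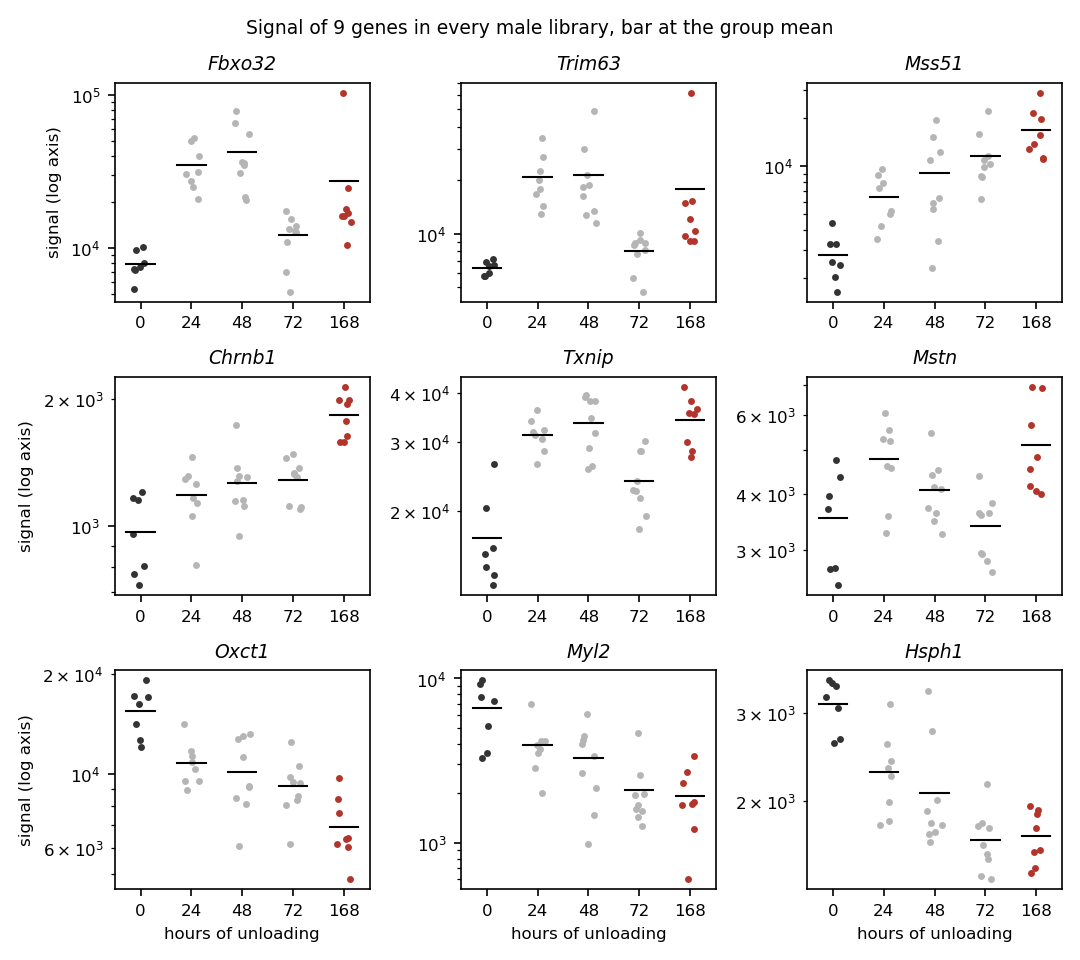
Signal (log axis) of 9 genes in each of the 41 male libraries by hours of unloading, with the 0 h libraries black, the 168 h libraries red and a bar at the mean of each group. Chrnb1 at 168 h lies above all earlier groups except 1 library at 48 h (1735), and Fbxo32 has 1 library at 103212.

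Positions are given for 6 of the genes described, picked after their values were seen. In the coordinates of the deposited table Mss51 (ENSMUSG00000021815) lies on chromosome 14 from 20532935 to 20546970, Bdh1 (ENSMUSG00000046598) on chromosome 16 from 31241098 to 31277720 and Oxct1 (ENSMUSG00000022186) on chromosome 15 from 4055865 to 4184827. Cirbp (ENSMUSG00000045193) lies on chromosome 10 from 80001819 to 80008621, Rbm3 (ENSMUSG00000031167) on chromosome X from 8005214 to 8012120 and Pdk4 (ENSMUSG00000019577) on chromosome 6 from 5483351 to 5496310. The table calls each of these 6 a protein-coding gene. Its build is not given with it, and of 12831 genes matched to an mm10 annotation 2.49% have the same start.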

How the data were processed

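RNA of whole frozen gastrocnemius was sequenced per the labels' protocols. Per the submitters' processing notes the tools were STAR 2.7.8a, Partek and DESeq2, and the genome builds mm39 and mm10; no role is given for any of them. The deposited signal values are estimated reads divided by a size factor per library, as their level (median ratio near 1) and their step size show; the authors' table lists genes whose highest library reaches about 100, and 54.2 to 60.0% of low values came out within 0.03 of whole reads, so no count test was run. The p values (FDR) and fold ratio of the authors' deposited 168 h table were copied as they stand.

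Values were fitted as log2(signal + 1) with limma 3.58.1 (R 4.3.3) over all 41 male libraries in 5 groups, with mean-variance trend and robust estimation, for 168 h minus 0 h and 168 h minus 72 h. Tests were two-sided, with Benjamini-Hochberg adjustment over 12853 genes and calls at an adjusted p under 0.05. Values after ± are standard errors of the fit, and log2 changes understate those of genes with a low signal. On simulated data for 168 h against 0 h, with 200 of 12853 genes changed, 61.5% of changes of 0.5, 92% of changes of 1 and 99% of changes of 2 on the log2 scale were recovered. False calls numbered 5, 7 and 10. The simulated spread was normal, and a smaller share of genes was changed than the 22.5% called in the data. These rates may therefore not hold for the data.

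Genes named with values are the 12 highest and 12 lowest called changes with a mean signal of at least 200, the 6 smallest p values each way, up to 4 called members of each of 37 gene lists and 12 marker lists with the smallest p (where fewer than 2 are called, its 2 members with the smallest p), Fbxo32, Trim63, Foxo1, Foxo3, Mstn, Myh7, Myh2, Myh1, Myh4, Igf1, Ppargc1a and Tfrc, and the 6 highest and 6 lowest calls against 72 h; provisional names were left out, and some genes chosen this way are not reported here. Other members (Hspa1a, Hspa1b, Hspb1, Hspb6, Dnaja4, Foxo4, Bnip3l, Pgf, Pecam1 and Cdh5 among them) were picked after their values were seen. The comparison, lists and rule were chosen with earlier results of these data known. No set test was run, and lists are described by counts and medians. Alternatives were other pseudocounts, scalings, filters and fits and each library left out. Promoters are RefSeq's for GRCm38.p6, matched by symbol.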

Additional observations from a re-analysis of the deposited data

Results flagged for a closer look

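In 38 of 378 groups of one named gene's values at 0 h or 168 h, 1 library stood apart from the rest by more than Dixon's critical value (0.568 for 7 libraries and 0.526 for 8). For normally distributed values chance alone flags about 1 in 20 groups. The signals were tested without a log, so that rate may not hold here, and genes of one library are not independent of each other. Of these flags 17 belong to 168 h replicate 8, and 6 each to 168 h replicate 4 and control replicate 2.

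In 168 h replicate 8 the highest signal of the group stood apart for the ubiquitin ligases Fbxo32 (103212) and Trim63 (61908) and for Klhl38 (4272). The same held for the glucocorticoid-induced genes Cebpd (805), Ddit4 (3321), Fkbp5 (11645) and Tsc22d3 (12256), and for Depp1 (2443), Eif4ebp1 (1967) and Foxo1 (2522). It also held for the p53 targets Phlda3 (5286) and Trp53inp1 (2858), the proteasome subunits Psmd4 (6391) and Psmd8 (9476), and for Odf3l2 (2837) and Serinc3 (18272). Steap3 stood apart as its lowest value (461).

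In 168 h replicate 4 the signals of Actg1 (6542), Cd3e (42.2), Ndufb10 (6402) and Psme1 (875) were apart at the high end and those of Ptprb (1764) and Tead1 (4839) at the low end. In control replicate 2 those of Actc1 (71553), Ccnd2 (1002), Cd3e (109.8), Fkbp5 (3546) and Vcam1 (256) were apart at the high end and that of Pink1 (15935) at the low end. Cd3e is thus set apart in both of these libraries.

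The remaining 9 flags are spread over 7 libraries. Among the controls, Ccn1 was highest in replicate 1 (1991), Col15a1 and Pdk4 in replicate 4 (1685 and 14159), Igfbp7 in replicate 6 (1140.1) and Tmem100 in replicate 7 (1308), where Psme1 was lowest (592). At 168 h, Dglucy was highest in replicate 2 (990.0), Klf11 in replicate 3 (388) and Col6a3 in replicate 5 (1841).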

How the results depend on the processing

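No paired analysis was possible because the labels number no replicates, and the numbers used here follow the order of the samples. Against 0 h the counts of called genes stayed within 1.5 times of 1418 higher and 1479 lower under every alternative run: 1423 and 1491 with a pseudocount of 8, 1093 and 1554 after scaling to the library total, 1402 and 1359 with the 0 h and 168 h libraries alone, 2014 and 1979 with array weights, 1139 to 1594 and 1197 to 1592 when 1 library was left out, and 1286 and 1302 without 168 h replicates 4 and 8, an alternative chosen after seeing the data. Against 72 h the counts of 16 higher and 22 lower did move. They were 5 and 6 with the 72 h and 168 h libraries alone, 336 and 294 with array weights, 72 lower after scaling to the total, 0 and 0 with the 2 libraries at 72 h of similar S number alone, 40 and 40 with the other 7 alone (chosen after seeing the data), and 0 to 66 and 0 to 58 when 1 library was left out. The cause was not tested. Array weights also moved counts in several lists by over 1.5 times, among them higher ones at 7 for ubiquitin ligases, 8 for lysosomal proteins, 7 for calcium handling, 9 for growth factor signalling, 7 for the clock and 4 for antioxidant genes, and lower ones at 12 for fibrillar collagens, 6 for growth factor signalling and 4, from 0, for mitochondrially encoded mRNAs. Of 192 named genes 171 were called against 0 h, and 159 kept the call under every alternative. The other 12, with the highest limma adjusted p reached, were Atf3 (0.067), Chrne (0.075), Comp (0.091), Ctsb (0.055), Kera (0.065), Lep (0.093), Lum (0.10), Ncoa4 (0.057), Ndufb10 (0.075), Rrm1 (0.077), Tead1 (0.10) and Tfrc (0.053). Only the red cell genes Alas2 and Hbb-bt, not called, changed sign: their log2 changes lay between -0.0708 and 0.206 and between -0.0632 and 0.186 when 1 library was left out, and were -0.108 and -0.0359 without 168 h replicates 4 and 8. Depth was lowest, near 18 M reads, in control replicates 5 and 6 and 168 h replicate 8. A change of 0.5 on the log2 scale was recovered in 61.5% of simulated cases, with 200 of 12853 genes changed, a rate that may not hold for the data.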
